A study of Homo sapiens with 8 samples.

Results

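The genes FLNA, FLNC, PLEC, TLN1, SPTAN1, MACF1, DST, AHNAK and UTRN encode giant crosslinkers of the human cytoskeleton, and their translation was followed here on ribosomes bound by chaperones. They were chosen by name as very long cytosolic proteins that bind or link actin, and all 9 were found among the 60664 gene identifiers of the deposited count tables. The measurements come from selective ribosome profiling in U2OS cells, a human osteosarcoma line. In this assay the mRNA fragments that ribosomes shield from nuclease (ribosome-protected fragments, RPFs) are sequenced from all ribosomes (input) and from the ribosomes whose nascent chains a tagged chaperone holds (pulldown). The question the comparison addresses is which nascent chains the cytosolic chaperonin TRiC and its partner prefoldin (PFD) contact during translation. There were 4 groups of 2 biological replicates each. TRiC input and TRiC pulldown came from a line of genotype CCT4-Halo, in which the HaloTag had been knocked into a loop of the TRiC subunit CCT4. PFD input and PFD pulldown came from a line of genotype PFDN4-Halo, with the tag at the C terminus of a PFD subunit. Each line was grown from single edited cells. All 8 libraries shared cycloheximide at 100 µg/ml for 1 min, which holds ribosomes in place, and 2 mM of the amine crosslinker DSP for 30 min, and no pulldown from untagged cells was analysed here.

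Giant crosslinkers hold the cytoskeleton together. Filamins (FLNA, FLNC) join actin filaments into networks, plakins (PLEC, MACF1, DST) tie actin to intermediate filaments or microtubules, spectrins such as SPTAN1 form the mesh under the membrane, and talin (TLN1) couples integrins to actin. Utrophin (UTRN) links actin to the dystroglycan complex at the membrane, and AHNAK is a scaffold of the cell cortex. TRiC is a double-ring chaperonin best known for folding actin and tubulin in its closed chamber, and PFD is a smaller tentacled chaperone that hands such clients to it. A protein of this length is too large for the TRiC chamber to enclose as a whole.

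The libraries held between 9523128 and 32637658 counts. The 9 genes together took between 1.75% (TRiC input replicate 2) and 2.72% (PFD pulldown replicate 2) of all counts. The osteoblast and mesenchymal markers COL1A1 (45087 to 154571 counts), SPARC, VIM and RUNX2 were abundant in every library, whereas COL1A2 had between 1 and 66 and TWIST1 between 0 and 11 counts. Of the markers of other cell types, EPCAM had between 1 and 277 counts, and CDH1, KRT19, PTPRC, CD3E and ALB had at most 21. The 1 count of EPCAM was in PFD pulldown replicate 1, whereas the other libraries had at least 189. The PFD pulldowns differed widely from each other. The PFD log2 fold changes of the crosslinkers are therefore also given without either of them. The common dispersion of edgeR, its squared coefficient of variation between replicates, came to 0.0153 for the TRiC libraries and 0.331 for those of the PFD line.

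AHNAK differs from the other 8 in how much of it a short read can place. Its coding sequence is built from repeats, and 98.1% of it lies in a single exon. Of its 17643 windows of 28 bases, about the length of an RPF, 22.6% occur at more than 1 place in hg38, and such windows lie between codons 625 and 4832. The next highest share was 5.07% in FLNC, and it was 0% in TLN1, MACF1, DST and UTRN. Since the authors kept uniquely aligned reads, RPFs of this length from these windows are absent from the AHNAK count in every library alike. A repeated window and the nearest window that occurs once are shown because a single base decides whether a read is counted. Both are on the minus strand, at chr11:62531749-62531776 (codon 881) and chr11:62530618-62530645 (codon 1258), and the capital marks the base at which they differ.
AHNAK window found at 10 places: aaaatgcccaagttcagcatgcctggct
AHNAK window found at 1 place: aaaatgcccaagttTagcatgcctggct
All 10 places of the first window lie in the AHNAK coding sequence itself. Levels of AHNAK are therefore understated when set beside those of another gene, while its pulldown is compared with an input counted in the same way.

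All 9 genes are long, with coding sequences of 2506 codons (SPTAN1) to 7818 codons (DST) in the longest form that GENCODE release 44 lists. FLNA lies on chromosome X from 154348524 to 154374634 (hg38, minus strand; 2647 codons), and FLNC on chromosome 7 from 128830406 to 128859274 (plus strand; 2725 codons). The plakin genes are PLEC on chromosome 8 from 143915153 to 143976734 (minus strand; 4684 codons), MACF1 on chromosome 1 from 39081316 to 39487177 (plus strand; 7592 codons) and DST on chromosome 6 from 56457987 to 56954830 (minus strand). SPTAN1 is on chromosome 9 from 128552558 to 128633662 (plus strand), as is TLN1 from 35696948 to 35732195 (minus strand; 2558 codons). AHNAK spans chromosome 11 from 62433542 to 62556235 (minus strand; 5890 codons), and UTRN chromosome 6 from 144285335 to 144853034 (plus strand; 3433 codons). Counts per gene do not tell which isoform was translated. Opposite-strand genes overlapped at most 1.77% of the exon bases of a crosslinker gene (SPTAN1).

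In total ribosomes, the 9 genes spanned a wide range once their length was taken into account. Levels between genes are given as normalised CPM (counts scaled to a common library size with edgeR's TMM factors over all 8 libraries) per 1000 codons. In the TRiC inputs, FLNA was highest with a mean level of 2079 CPM per 1000 codons, followed by PLEC (828), TLN1 (708), AHNAK (513), FLNC (370) and SPTAN1 (328). DST (92.8), MACF1 (90.8) and UTRN (67.6) were the lowest. DST ranged from 90.7 to 95.0 and MACF1 from 89.4 to 92.2 between replicates, so this pair overlapped, and the other neighbours in the order did not. In the PFD inputs the order changed in 1 place, and no neighbours overlapped. FLNC held the third rank with 1198 CPM per 1000 codons, after FLNA (2383) and PLEC (1475) and before TLN1 (840), AHNAK (357), SPTAN1 (171), DST (137), MACF1 (89.7) and UTRN (27.2).

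**Figure D1:**
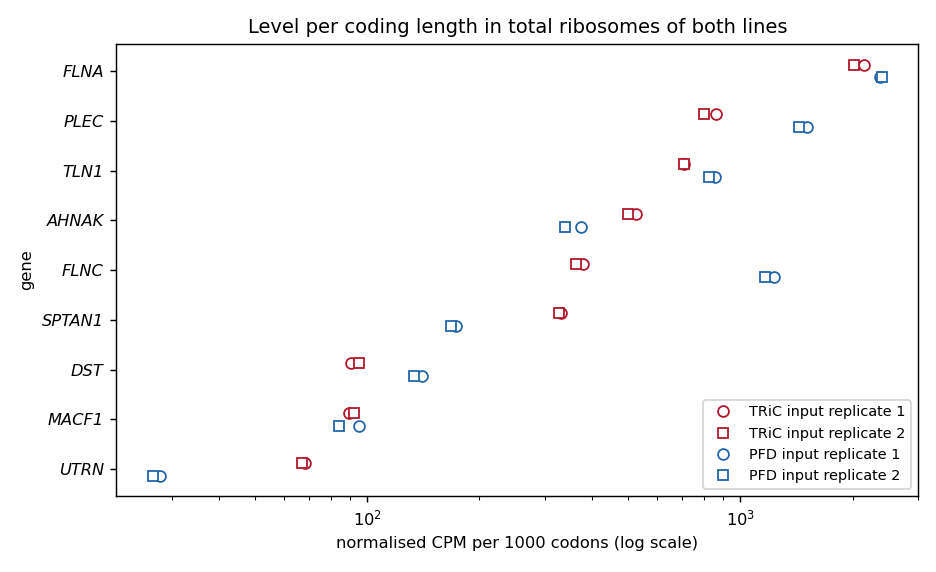
Level of each crosslinker gene in total ribosomes, as normalised CPM per 1000 codons of the longest coding sequence on a log scale, for both replicates of the TRiC input (red) and of the PFD input (blue). FLNA is highest in both lines, the replicates of each line lie close together, and FLNC (370 against 1198) and UTRN (67.6 against 27.2) show the widest gaps between the lines.

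The inputs of the lines were compared because each pulldown is read against its own input. By the quasi-likelihood test of edgeR, adjusted after Benjamini and Hochberg, 3 of the 9 genes were higher and 5 lower in the TRiC than in the PFD inputs at an adjusted p under 0.05. The background was high, since 22.6% of the 16341 genes tested were higher and 17.7% lower. FLNC had 1029 and 987 CPM in the TRiC inputs and 3349 and 3181 CPM in the PFD inputs (replicates 1 and 2). This was 3.24-fold lower in the TRiC line, a log2 difference of −1.70 (SE 0.05, adjusted p = 6.79e-05). PLEC (−0.83), DST (−0.56), TLN1 (−0.25) and FLNA (−0.20) were also lower. UTRN had 234 and 230 CPM in the TRiC inputs and 95.4 and 91.5 CPM in the PFD inputs, a log2 difference of 1.31 (SE 0.07, adjusted p = 0.000232). SPTAN1 (0.94) and AHNAK (0.52) were higher as well, and MACF1 (0.017, adjusted p = 0.874) was not called. The tagged subunit, the clone and the library preparation cannot be told apart in this comparison, nor can more mRNA and more ribosomes per mRNA. Cyclic loess in place of TMM moved the median of all genes from 0.11 to −0.034. With it 3 of the 5 lower calls were left (FLNC, PLEC and DST), and against a 1.5-fold change FLNC and PLEC were. FLNA also lost its call with at least 100 counts in every library (−0.095) and with all 8 libraries in one fit (−0.20).

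The TRiC pulldown split the crosslinkers. DST, MACF1, UTRN, AHNAK and SPTAN1 took a larger share of RPFs in the pulldown than in the input, FLNC and TLN1 a smaller one, and FLNA and PLEC were not called. Thus 5 of 9 were higher and 2 lower at an adjusted p under 0.05 in edgeR's quasi-likelihood test over 17934 genes, where 8.64% of all genes were higher and 10.6% lower. The median log2 fold change (pulldown over input) of the 9 was 0.28 and that of all genes −0.003. Since TMM centres most genes on 0, each value is relative to them.

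**Figure D2:**
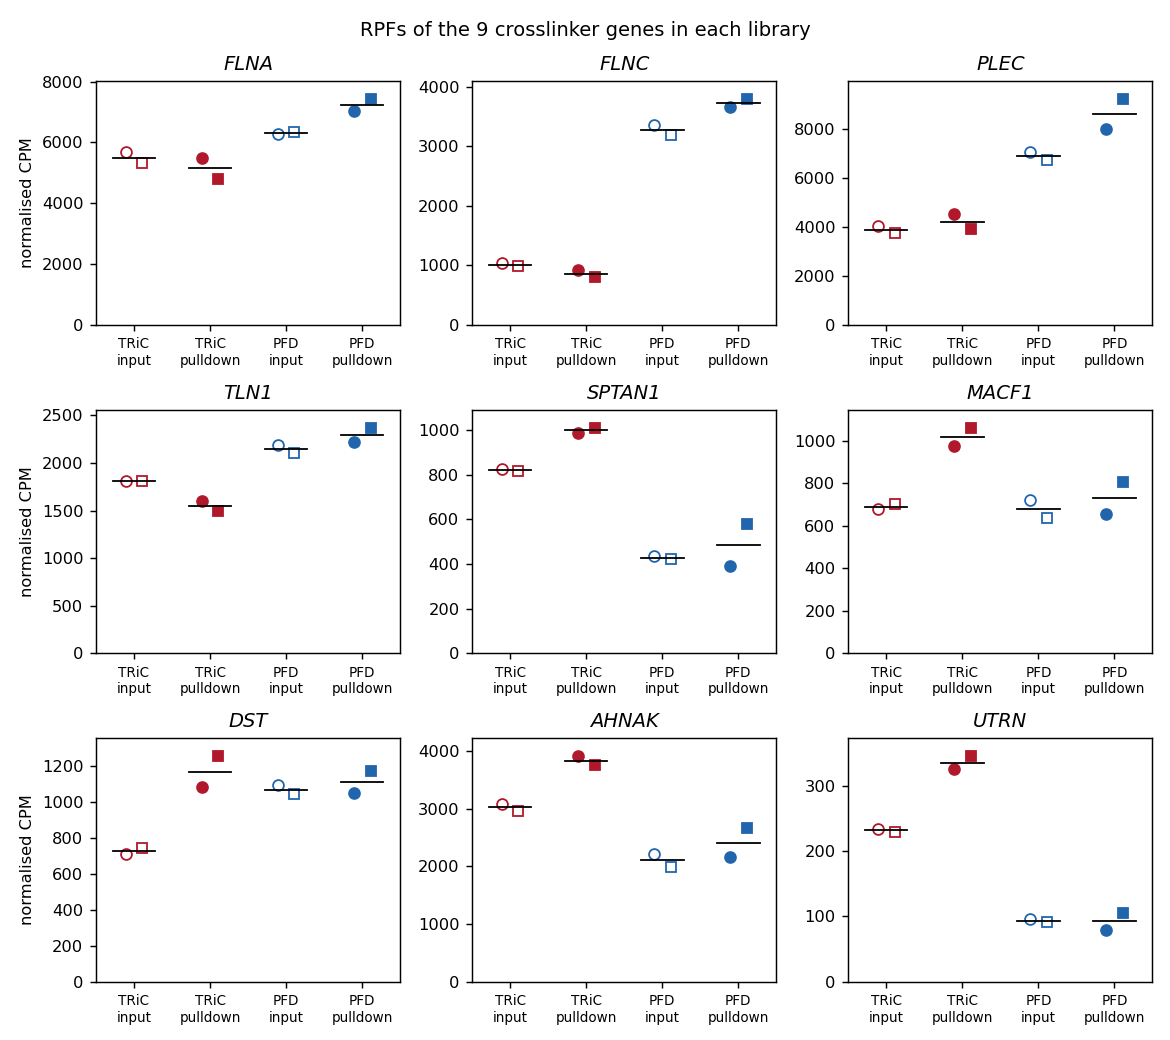
Normalised CPM of each of the 9 crosslinker genes in the 8 libraries. Circles are replicate 1 and squares replicate 2, open symbols are inputs and filled symbols pulldowns, and the bar is the mean of both. In the TRiC libraries (red) both pulldowns of SPTAN1, MACF1, DST, AHNAK and UTRN lie above both inputs and those of FLNC and TLN1 below; in the PFD libraries (blue) both pulldowns lie above both inputs for FLNA, FLNC, PLEC and TLN1.

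Of the plakins, DST, which ties intermediate filaments to other cytoskeletal systems, had 709 and 743 CPM in the TRiC inputs and 1083 and 1257 CPM in the pulldowns. Both pulldowns were far above both inputs. DST rose 1.61-fold, a log2 fold change of 0.69 (SE 0.07, adjusted p = 8.10e-06). MACF1, which crosslinks actin and microtubules, had 679 and 700 CPM in the inputs and 976 and 1061 CPM in the pulldowns. It rose 1.48-fold, a log2 fold change of 0.56 (SE 0.07, adjusted p = 2.48e-05). PLEC, the linker of intermediate filaments to hemidesmosomes and actin, behaved otherwise. Its inputs were at 4027 and 3734 CPM and its pulldowns at 4514 and 3921 CPM, so that the groups overlapped. Its log2 fold change of 0.12 (SE 0.07, adjusted p = 0.226) was not called. PLEC was called higher with a replicate block and with cyclic loess (0.33), and it was at 0.23 without TRiC pulldown replicate 2.

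UTRN, the widely expressed relative of dystrophin, had 234 and 230 CPM in the TRiC inputs and 325 and 345 CPM in the pulldowns. It rose 1.45-fold, a log2 fold change of 0.53 (SE 0.07, adjusted p = 9.63e-05). AHNAK went from 3087 and 2951 CPM to 3910.3 and 3754 CPM, a log2 fold change of 0.34 (SE 0.06, adjusted p = 0.000571). Neither gene showed overlap between groups, and in all 5 genes that rose both pulldowns were above both inputs, as in 29.3% of all genes tested. SPTAN1, the non-erythroid alpha spectrin, had 828 and 817 CPM in the inputs and 989 and 1012 CPM in the pulldowns. The log2 fold change of 0.28 (SE 0.06, adjusted p = 0.00419) corresponds to a 1.22-fold rise, and it was 0.26 without TRiC input replicate 2. Each of the 5 rises kept its direction in all 12 alternative settings. However, none passed a test against a 1.5-fold change, where 164 of all genes were higher and 64 lower. With all 8 libraries in one fit DST alone was called, where 16 of all genes were higher and 15 lower.

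FLNC and TLN1 fell, and FLNA was not called. FLNC, the filamin best known from muscle, had 1029 and 987 CPM in the TRiC inputs and 914 and 806 CPM in the pulldowns. Its log2 fold change was −0.23 (SE 0.07, adjusted p = 0.0275), a 1.17-fold fall. TLN1 had 1810.2 and 1812 CPM in the inputs and 1605 and 1497 CPM in the pulldowns, for a log2 fold change of −0.22 (SE 0.06, adjusted p = 0.0157). Both pulldowns of each gene lay below both inputs, as they did for 31.2% of all genes tested. FLNA, the main filamin of non-muscle cells, had 5670.5 and 5335 CPM in the inputs and 5503 and 4802 CPM in the pulldowns. These groups overlapped, and its log2 fold change was −0.095 (SE 0.06, adjusted p = 0.330). FLNC and TLN1 both lost their call with library totals in place of TMM (−0.18 for each) and with cyclic loess (−0.069 and −0.040). They also lost it with at least 100 counts in every library, against a 1.5-fold change and with all 8 libraries in one fit. FLNC was at −0.13 without TRiC pulldown replicate 2. FLNA was at 0.13 with cyclic loess, at 0.0099 without TRiC pulldown replicate 2 and at −0.21 without TRiC pulldown replicate 1.

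**Figure D3:**
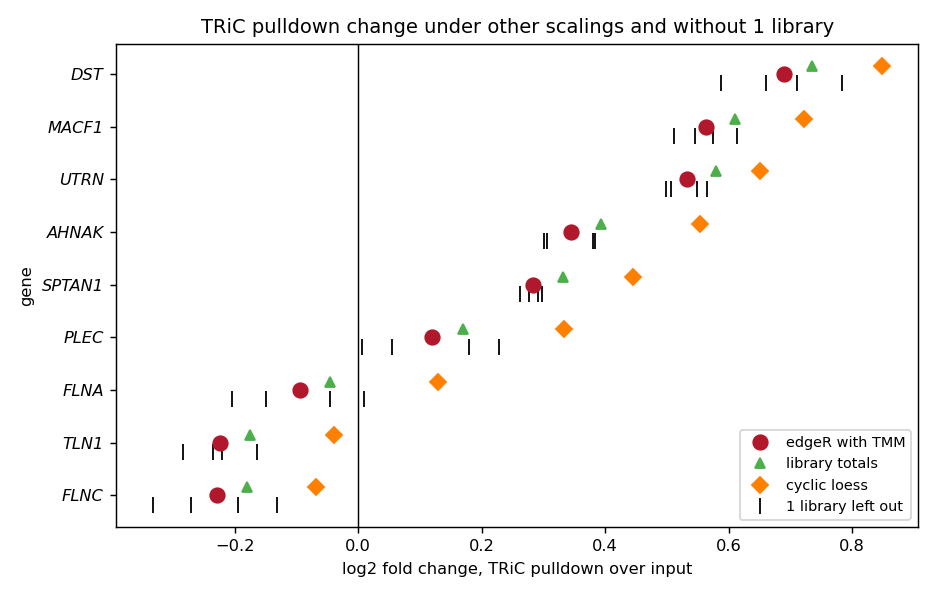
log2 fold change of each crosslinker gene in the TRiC pulldown over the input under edgeR with TMM (red circles), with library totals (green triangles), with cyclic loess (orange diamonds) and with 1 of the 4 libraries left out (black ticks). DST, MACF1, UTRN, AHNAK and SPTAN1 stay above 0 throughout, FLNC and TLN1 stay below 0 but come close to it with cyclic loess (−0.069 and −0.040), and FLNA changes sign.

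Length and base composition of the coding sequence went along with these values. Among all protein-coding genes tested in the TRiC libraries, the median log2 fold change rose from −0.26 for the 245 genes of at most 100 codons, over 0.031 for 500 to 1000 codons (4776 genes), to 0.40 for the 82 genes of more than 4000 codons. Across 14611 genes, which share their libraries and are not independent replicates, Spearman's rho of the log2 fold change was 0.349 with the number of codons and −0.206 with GC content. Of the 259 genes tested with a coding sequence at least as long as that of SPTAN1, 48.6% were higher and 1.93% lower, with a median of 0.30. Against a 1.5-fold change, 10 of these genes were higher and none lower, where 164 and 64 of all genes were. With all 8 libraries in one fit, 5 were higher and none lower, where 16 and 15 of all genes were. DST lay above 81.5% of this length class, MACF1 above 74.9%, UTRN above 71.0%, AHNAK above 52.9% and SPTAN1 above 47.5%. PLEC lay above 24.3%, FLNA above 9.27%, TLN1 above 6.18% and FLNC above 5.79%. FLNC and TLN1 were 2 of the 5 genes of the class that were lower, the others being FASN, MAP1A and SRCAP.

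The genes called higher in the TRiC pulldown had a lower GC content than those that were not. DST (41.6% GC), UTRN (44.8%), MACF1 (46.6%), AHNAK (49.3%) and SPTAN1 (53.3%) were higher. TLN1 (57.4%), FLNA (61.8%), FLNC (62.2%) and PLEC (67.0%) were lower or not called. Over the 9 genes Spearman's rho of the TRiC log2 fold change was −0.867 with GC content and 0.717 with the number of codons, as a description of genes that share their libraries. Within the length class rho with GC content was −0.200 over 259 genes. For the PFD pulldown the sign was opposite, with a rho with GC content of 0.783 over the 9 genes and 0.221 over 235 genes of the length class. For the TRiC minus the PFD log2 fold change it was −0.883 over the 9 genes and −0.247 over 264 genes of the class. The level in the TRiC inputs, as normalised CPM scaled to coding length, also went along with the split in part. It was lowest in UTRN (67.6), MACF1 (90.8) and DST (92.8) and highest in FLNA (2079), PLEC (828) and TLN1 (708). However, AHNAK (513), which was higher in the pulldown, had a higher level than FLNC (370), which was lower. The parts of length, base composition and level in the values of the crosslinkers were not tested.

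**Figure D4:**
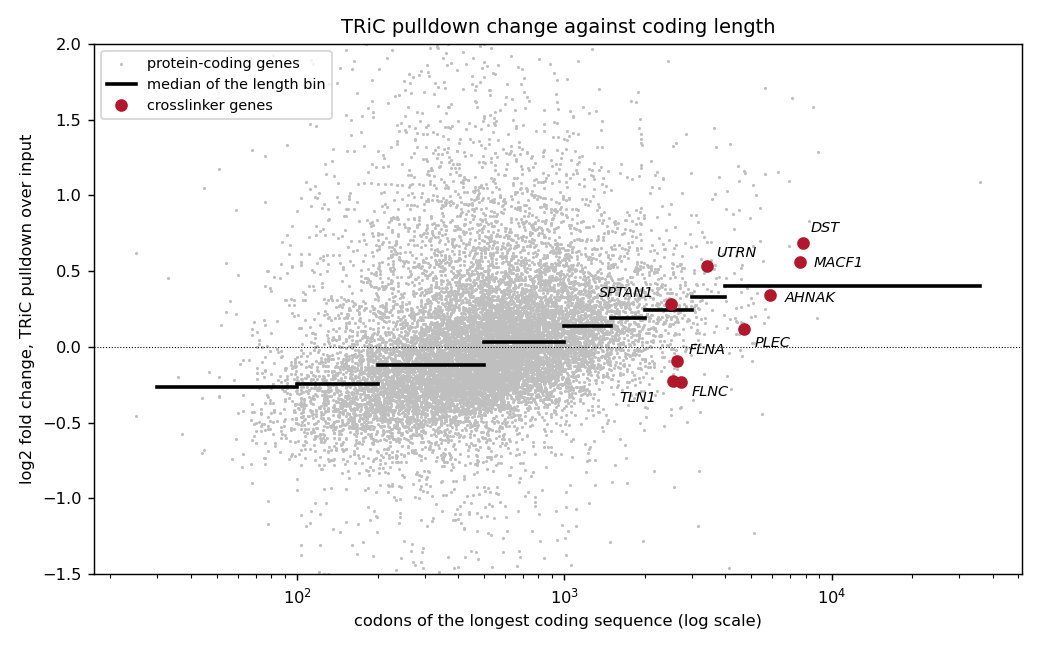
log2 fold change in the TRiC pulldown over the input against the codons of the longest coding sequence (log scale) for 14611 protein-coding genes (grey), with the median of each length bin (black lines) and the 9 crosslinker genes (red). The medians climb from −0.26 for genes of at most 100 codons to 0.40 above 4000 codons, DST, MACF1, UTRN and SPTAN1 lie above the median of their length bin, and FLNA, FLNC, TLN1, PLEC and AHNAK below it; 248 genes fall outside the plotted range of −1.5 to 2.

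In the PFD pulldown no crosslinker was called, although 8 of the 9 log2 fold changes were above 0. So were those of 7044 of all genes tested, 144 of 235 genes of the length class and 28 of 36 giant secreted or membrane proteins. The median of the 9 was 0.19, against −0.0005 for all 14111 genes tested, of which 0.0496% were higher and 0.191% lower in edgeR's quasi-likelihood test. At an unadjusted p under 0.05 there were 3 of the 9 (FLNA, FLNC and PLEC), where 6.93% of all genes were. DESeq2 called the same 3 genes higher, in a fit that called 1.79% of all genes higher and 1.99% lower, and edgeR with a replicate block called PLEC, where 0.312% of all genes were higher. With the spread between the PFD pulldowns, a missed threshold does not show that a gene was unchanged.

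PLEC had the highest value of the 9 in the PFD pulldown. It had 7067 and 6746 CPM in the PFD inputs and 8011 and 9223 CPM in the pulldowns, for a log2 fold change of 0.33 (SE 0.06, adjusted p = 0.139). FLNA had 6273 and 6345 CPM in the inputs and 7051 and 7428 CPM in the pulldowns, with a log2 fold change of 0.21 (SE 0.05, adjusted p = 0.471). FLNC went from 3349 and 3181 CPM to 3654 and 3789.6 CPM, a log2 fold change of 0.20 (SE 0.06, adjusted p = 0.657). For TLN1 the inputs were at 2191 and 2109 CPM and the pulldowns at 2225 and 2372 CPM, a log2 fold change of 0.11 (SE 0.07, adjusted p = 0.846). These 4 genes had both pulldowns above both inputs, as 17.9% of all genes tested did. They were the 4 not called higher in the TRiC pulldown, where PLEC was above 0 (0.12) and called higher in some alternative settings.

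The other 5 genes had 1 high and 1 low PFD pulldown. SPTAN1 was at 434 and 422 CPM in the inputs and at 392 and 578 CPM in the pulldowns, with replicate 1 below and replicate 2 above both inputs. UTRN was at 95.4 and 91.5 CPM in the inputs and at 79.6 and 105 CPM in the pulldowns, in the same arrangement. MACF1 was at 723 and 638 CPM in the inputs and at 654 and 804 CPM in the pulldowns. DST had 1095 and 1045 CPM against 1049 and 1172 CPM, and AHNAK 2205 and 1996 CPM against 2159 and 2655 CPM. In these 3 genes replicate 1 of the pulldown lay between the inputs. The log2 fold changes were 0.21 for AHNAK, 0.19 for SPTAN1, 0.11 for MACF1, 0.066 for DST and −0.0066 for UTRN, with SEs between 0.08 and 0.19 and adjusted p-values between 0.723 and 0.999. Without PFD pulldown replicate 1, the log2 fold changes were 0.40 for SPTAN1, 0.39 for PLEC, 0.31 for AHNAK, 0.20 for FLNA, 0.19 for FLNC and 0.14 for UTRN. Without PFD pulldown replicate 2, they were 0.26 for PLEC, 0.21 for FLNA and for FLNC, −0.0077 for MACF1 and −0.077 for SPTAN1. Each of these fits holds 1 pulldown library, so its p-values carry no spread between the pulldowns and are not used here. UTRN had few RPFs in this line, with 0.221 to 0.845 reads per codon in the PFD pulldowns, whereas FLNA had 25.3 to 77.4.

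**Figure D5:**
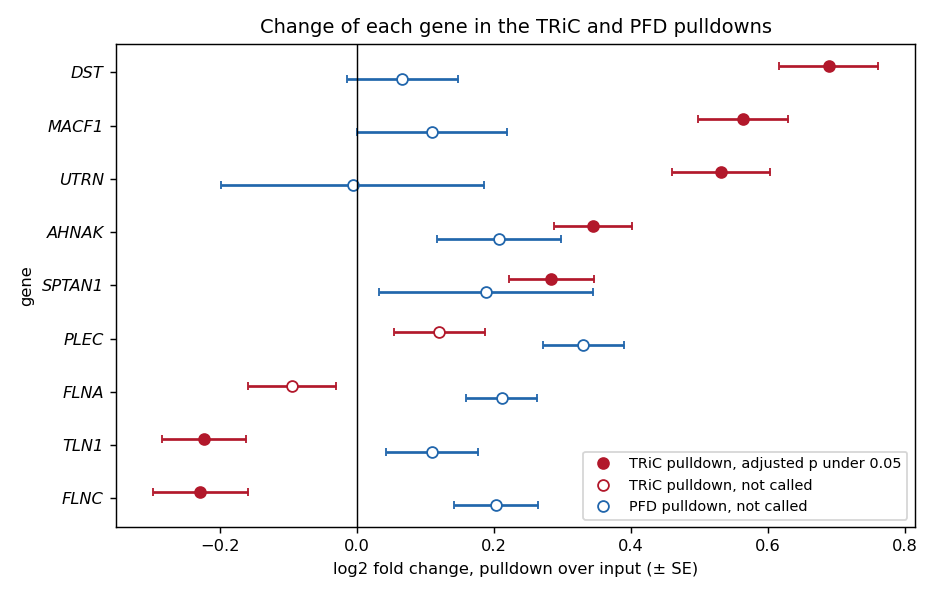
log2 fold change (pulldown over input) of each crosslinker gene in the TRiC (red) and the PFD pulldown (blue), with the SE of edgeR's fit as error bar; filled symbols have an adjusted p under 0.05. TRiC values spread from −0.23 (FLNC) to 0.69 (DST), whereas PFD values lie between −0.0066 (UTRN) and 0.33 (PLEC) and none is called.

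Whether the TRiC and PFD enrichments differed was tested as an interaction over all 8 libraries. None of the 9 genes passed an adjusted p of 0.05 in edgeR's quasi-likelihood test, where 0.0212% of 18855 genes had a larger and 0.0159% a smaller enrichment with TRiC. At an unadjusted p under 0.05 there were 6 of the 9, where 14.8% of all genes were, and with DESeq2 DST, MACF1 and UTRN were called larger and FLNA, FLNC and TLN1 smaller for TRiC, beside 2.78% of all genes larger and 3.13% smaller. DST had the highest difference, at 0.63 (log2, TRiC minus PFD; SE 0.13, adjusted p = 0.155), followed by UTRN (0.54) and MACF1 (0.46). The difference was −0.42 for FLNC (SE 0.11, adjusted p = 0.198), −0.32 for TLN1 and −0.29 for FLNA. PLEC (−0.20), AHNAK (0.15) and SPTAN1 (0.10) lay nearest to 0. As with PFD alone, a missed threshold does not show that the enrichments of a gene were alike. The fits without a PFD pulldown hold 1 PFD pulldown library, so their p-values carry no spread between the PFD pulldowns. Their calls are listed only to show how far they moved with the library left out, and are not counted as differences between TRiC and PFD. Without PFD pulldown replicate 2, edgeR called 5 of the 9 genes larger and 1 smaller for TRiC, beside 11.6% and 6.73% of all genes. Without PFD pulldown replicate 1, it called 1 larger (DST) and 2 smaller (FLNC and TLN1), beside 2.93% and 2.69% of all genes, and SPTAN1 was at −0.15.

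The relatives of the 9 genes moved in both directions as well. Of 24 spectrins, plakins, nesprins, alpha-actinins and other actin linkers on the list, 21 were tested in the TRiC libraries, and 7 were higher and 2 lower, with a median log2 fold change of 0.19. These are 33.3% and 9.52% of those tested, beside 8.64% and 10.6% of all genes. With all 8 libraries in one fit no relative was called. Against a 1.5-fold change 1 relative was higher and none lower. The closest paralogs did not follow their partners throughout. TLN2, the second talin, rose from 87.2 ± 3.59 to 134 ± 3.03 CPM (SD, n = 2 each), a log2 fold change of 0.62 (SE 0.08, adjusted p = 9.85e-05), whereas TLN1 fell. Their coding sequences are of nearly the same length, with 2542 codons in TLN2 and 2558 in TLN1, and the TLN2 level was far lower. The beta spectrin SPTBN1 was at 0.28 (adjusted p = 0.00431), the same value as its partner SPTAN1, and AHNAK2 was at 0.19 (adjusted p = 0.0443) beside 0.34 for AHNAK. The call of AHNAK2 was lost with no filter, and the calls of both with glmTreat and with all 8 libraries in one fit. Without TRiC input replicate 2, AHNAK2 was at 0.17 and SPTBN1 at 0.24. DMD, the dystrophin gene, had a mean of 3.25 counts and was not tested. In the PFD pulldown edgeR called none of TLN2, SPTBN1 and AHNAK2, which lay between −0.17 (AHNAK2) and 0.19 (SPTBN1). DESeq2 called SPTBN1 higher (0.20).

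Further from the 9, the nesprin SYNE2 (log2 fold change 0.67) and the beta spectrin SPTBN5 (1.01) were highest among the called relatives in the TRiC pulldown. SPTBN5 had few RPFs, with 0.247 and 0.243 reads per codon in the TRiC inputs. The alpha-actinins, which are much shorter, went both ways. ACTN1 (930 codons) was called lower at −0.20 and ACTN4 (911 codons) at −0.19. ACTN2 (894 codons) was at 0.22 and ACTN3 (944 codons) at 0.16. The calls of ACTN1 and ACTN4 were lost in several alternatives. Among these were library totals, cyclic loess, at least 100 counts in every library and all 8 libraries in one fit. Of 41 proteins that the crosslinkers bind or anchor to, 1 was higher in the TRiC pulldown, the microtubule tip protein CLASP1 (0.28), and 6 were lower. These are 2.44% and 14.6% of the partners, beside 8.64% and 10.6% of all genes. The lower ones included S100A11 (−0.43), ACTG1 (−0.39), ADD1 (−0.27), VIM (−0.21) and ANXA2 (−0.20), which are a calcium-binding protein, a cytoplasmic actin, an adducin, vimentin and an annexin. The lower calls among partners were 2 with library totals or with cyclic loess, and 3 with at least 100 counts in every library. The higher calls were 2 with DESeq2, 3 with a replicate block, 4 with cyclic loess and 5 with at least 100 counts. Against a 1.5-fold change there was no call in either direction. The median of the partners, −0.033, turned to 0.013 with library totals and 0.020 with cyclic loess. With all 8 libraries in one fit no partner was called.

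Giant proteins without a crosslinking role were set beside them. Of 45 giant cytosolic and nuclear proteins, 30 (66.7%) were higher in the TRiC pulldown and none lower, with a median log2 fold change of 0.29. Of all genes, 8.64% were higher and 10.6% lower. The values among their called genes ran from UBR4 (0.20), BPTF (0.26) and LRBA (0.27) to HECTD4 (0.63), WDFY3 (0.69) and VPS13A (0.83). Of 41 giant secreted or membrane proteins, 12 were higher and none lower, with a median of 0.18. Their called genes ran from LAMA1 (0.23), COL12A1 (0.25) and COL6A3 (0.25) to COL7A1 (0.75), PKD1 (0.78) and TNXB (1.10). The highest of these had few RPFs. In the TRiC inputs, TNXB had 0.0519 and 0.0561 and PKD1 0.223 and 0.193 reads per codon, whereas FLNA had 60.0 and 61.6. At an unadjusted p under 0.05 there were 36 and 21 genes of these lists, where 32.5% of all genes were. With a replicate block or cyclic loess there were 20 higher giant secreted proteins. Their median was 0.23 without TRiC input replicate 1 and 0.13 without TRiC input replicate 2. Against a 1.5-fold change, none of the giant cytosolic and 1 of the giant secreted proteins was higher. With all 8 libraries in one fit none of either list was higher, where 16 of all genes were. DST, MACF1, UTRN and AHNAK lay above the medians of both lists, FLNA, FLNC, TLN1 and PLEC below them, and SPTAN1 between them.

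In the PFD pulldown edgeR called no gene of the relatives, partners, giant cytosolic or giant secreted lists. Their medians were 0.11, 0.015, 0.045 and 0.15, beside 0.19 for the crosslinkers. At an unadjusted p under 0.05 there were 2, 2, 1 and 3 genes, and DESeq2 called 1 relative (SPTBN1) and 1 giant secreted protein higher, and 1 partner in each direction. In the length class, 235 genes were tested with PFD and none was called (19 at an unadjusted p under 0.05; 10 higher and 1 lower with DESeq2), with a median of 0.086.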

How the data were processed

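The authors removed PCR duplicates through unique molecular identifiers with UMI-tools, took out reads that matched non-coding RNA (Bowtie2 2.4.2) and aligned what remained to hg38 with STAR 2.7.10a, allowing 2 mismatches and 1 locus per read. The deposited values are whole-number counts per gene without normalization, in a table for each line; the annotation release and strand column are not given in the sources used here. Of 60664 identifiers, 60463 matched GENCODE release 44, the source of names, positions and coding lengths.

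From the counts, edgeR 4.0.16 in R 4.3.3 (TMM, filterByExpr, glmQLFit, glmQLFTest, no replicate block, Benjamini-Hochberg over all genes tested) compared pulldown with input in a fit of the 4 libraries of a line, the inputs in a fit of the 4 inputs, and both enrichments as an interaction over 8 libraries. The SE is the log2 fold change over the square root of F. It covers counting error and the spread between 2 replicates per group together. The fits were tested on simulated data, where those for PFD and for the interaction missed nearly all genes changed 1.5-fold. The changed genes were drawn from all genes above the median level. The share that would be missed among genes as abundant as most crosslinkers was therefore not measured.

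The comparisons were repeated with DESeq2 1.42.0, with cyclic loess and limma-trend (limma 3.58.1), with scaling to library totals, with replicate numbers as a block, without a filter, with a minimum of 100 counts per library, with glmTreat (1.5-fold), in a joint fit of 8 libraries, and without each library in turn. A fit without 1 library leaves 1 library in a group, so its p-values carry no spread between the libraries of that group. The lists of relatives, partners and giant proteins and the 9 genes were chosen with earlier results of these data known. Named genes are the 9, their paralogs TLN2, SPTBN1, DMD and AHNAK2, and in each list the called genes with the 3 highest and 3 lowest log2 fold changes at a mean count of at least 100. FASN, MAP1A, SRCAP, ACTN2 and ACTN3 are not covered by this rule and were named once their values were known. Values of 1 further gene that the rule names are not reported here. Positional peaks of the study cannot be derived from counts per gene. No protein sequences were used here.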

Additional observations from a re-analysis of the deposited data

Results flagged for a closer look

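For FLNC and TLN1 both TRiC pulldowns lay below both TRiC inputs, as for 31.2% of all genes tested, and both PFD pulldowns above both PFD inputs, as for 17.9%. The log2 fold change of FLNC was −0.23 with TRiC and 0.20 with PFD, and that of TLN1 was −0.22 and 0.11. The PFD values were not called by edgeR's quasi-likelihood test (adjusted p = 0.657 for FLNC and 0.846 for TLN1). Both TRiC calls were lost with library totals, cyclic loess, at least 100 counts in every library, glmTreat and all 8 libraries in one fit. The difference itself did not pass in edgeR's interaction test over all 8 libraries (adjusted p = 0.198 for FLNC and 0.228 for TLN1).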

How the results depend on the processing

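In the TRiC comparison, the 5 higher and 2 lower calls became 0 and 0 with glmTreat and 1 (DST) and 0 with all 8 libraries in one fit. The calls of all genes went from 1550 and 1894 to 164 and 64 with glmTreat and to 16 and 15 in the joint fit. No member was lower with library totals, cyclic loess or at least 100 counts in every library. Calls with 1 library left out are not counted here, since 1 library is then left in a group. The median of 0.28 was 0.33 with library totals, 0.45 with cyclic loess and 0.35 with at least 100 counts. The share of lower genes in the length class, 1.93%, was 0% among coding sequences as long as that of the median member. In the PFD comparison, 0 higher calls became 1 with a replicate block and 3 with DESeq2, where all genes went from 7 to 44 and 252. For the difference between the enrichments, 0 and 0 became 3 higher and 3 lower with DESeq2 and 1 and 2 with no filter. All genes went from 4 and 3 to 464 and 521 and to 213 and 298. The median difference of 0.10 ranged from −0.15 to 0.32 with 1 library left out. Between the inputs, 5 lower calls became 3 with cyclic loess and 2 with glmTreat, and the median of −0.20 became −0.033 with cyclic loess and −0.095 with at least 100 counts. With 1 input left out it ranged from −0.22 to −0.14. The cause of these shifts was not tested.

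Signs changed in a few genes. In the TRiC pulldown FLNA was at 0.13 with cyclic loess and between −0.21 and 0.0099 with 1 library left out, the highest without TRiC pulldown replicate 2. In the PFD pulldown UTRN was at 0.0033 with DESeq2 and 0.0014 with cyclic loess. With 1 library left out its value ranged from −0.18 to 0.14, that of AHNAK2 from −0.38 to 0.0014, TLN2 from −0.016 to 0.25, SPTAN1 from −0.077 to 0.40 and MACF1 from −0.0077 to 0.21, with both ends set by leaving out a PFD pulldown. For the difference, cyclic loess gave 0.022 for FLNA and 0.11 for PLEC, and SPTAN1 ranged from −0.15 to 0.43 with 1 library left out. Between inputs MACF1 ranged from −0.039 to 0.12. Same-numbered libraries did not deviate together, with correlations of deviations from the group means of 0.0504 (TRiC), −0.0059 (PFD) and 0.0371 (inputs) over 18855 genes. With numbers as a replicate block, PLEC was added to the higher calls in both pulldowns, at 0.12 (TRiC) and 0.33 (PFD).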
